A study of Mus musculus with 32 samples.

Results

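Apoe, Apoc1, Lpl, Abca1, Cst7, Itgax, Clec7a, Spp1, Gpnmb and Cd9 are genes of disease-associated microglia and of lipid transport, and they were followed here through RNA of mouse brain. They were taken by gene symbol from a table of raw read counts over exons, in which each of the 10 symbols matched 1 of 24411 gene rows. The rule uses the symbols alone.

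Disease-associated microglia are a state described in mouse models of amyloid disease and neurodegeneration, in which microglia around plaques or damaged tissue lower their resting genes and turn on genes of phagocytosis, lysosomes and lipid handling. Passage into the full state depends on the lipid receptor TREM2, and APOE, which carries cholesterol and phospholipid between cells, is both a ligand in that pathway and among its most induced genes. In the healthy brain most APOE is made by astrocytes, and border macrophages also make it. Within the set, APOE and APOC1 are apolipoproteins, LPL releases fatty acids from lipoprotein triglyceride, and ABCA1 moves cholesterol and phospholipid out of cells onto apolipoproteins. Cystatin F, the product of Cst7, inhibits cysteine cathepsins, Spp1 encodes the secreted phosphoprotein osteopontin, and GPNMB is a membrane glycoprotein of lysosome-rich phagocytes. CD11c, encoded by Itgax, is an integrin subunit, Clec7a encodes the glucan receptor dectin-1, and CD9 is a tetraspanin.

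The mice were C57BL/6 and carried RPL22-HA, the RiboTag allele that puts a haemagglutinin (HA) tag on a ribosomal protein once Cre has acted, with either Cx3cr1-CreER or Sall1-CreER. Animals of both lines received 5 mg tamoxifen by gavage on 4 occasions at 4 to 6 weeks of age, so all 8 groups share the tagged allele, a CreER driver and tamoxifen. Each brain of 4 mice per line (mice 1, 2, 3 and 4 of the Cx3cr1 line and mice 7, 9, 17 and 21 of the Sall1 line) gave 4 libraries. Sort is polyadenylated RNA of microglia purified by warm collagenase digestion, Percoll and flow cytometry, SortIP is RNA precipitated with anti-HA from such sorted cells, HA is RNA precipitated with anti-HA straight from brain homogenate, and IgG is the same with an isotype control antibody. Tagging follows whichever cells use the Cx3cr1 or the Sall1 promoter, and the homogenate holds all cells of the brain.

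For the 8 sorted libraries of the Cx3cr1 line, the title and antibody label name the opposite of what the description and column name say about Sort and SortIP. Comparisons with sorted cells therefore used, for each mouse, the sum of its Sort and SortIP counts, which does not depend on that choice. The sums held 1732758 to 2867701 gene counts in the Cx3cr1 line and 1272265 to 2433699 in the Sall1 line. Titled Sort held 677423 to 1058912 and titled SortIP 746794 to 1808789 in the Cx3cr1 line. Sort held 761172 to 1453481 and SortIP 249881 to 980218 in the Sall1 line. Whether the sums of both lines weigh Sort and SortIP alike thus depends on the labels. HA libraries held 286418 to 574671 gene counts in the Cx3cr1 line and 1894943 to 3027342 in the Sall1 line, and IgG libraries 704183 to 4047465 over both lines. Low values in Cx3cr1 HA and in Sall1 SortIP of mouse 21 (249881 gene counts, the shallowest library) are thus the least precise. As a check of the lines in sorted cells, the Cx3cr1 gene was not called between them (0.70 ± 0.18 for Sall1 over Cx3cr1, adjusted p = 0.0847), the Sall1 gene was lower in the Sall1 line (-0.76 ± 0.10, adjusted p = 0.000322) and Rpl22 was not called (0.39 ± 0.11, adjusted p = 0.0897).

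Markers of homeostatic microglia (22 genes such as P2ry12 and Tmem119) made up 9.68 to 10.2% of gene counts in sorted cells of the Cx3cr1 line, 9.28 to 10.1% in those of the Sall1 line, and 9.87 to 10.98% in Cx3cr1 HA. In Sall1 HA they made up 0.932 to 1.03%, against 0.164 to 0.212% in that line's IgG. Astrocyte markers (16 genes such as Aldoc and Slc1a3) made up 1.99 to 2.21% in Sall1 HA, above the 0.554 to 0.651% of its IgG and the 0.169 to 0.211% of Cx3cr1 HA. Oligodendrocyte markers made up 1.04 to 1.28% in Sall1 HA and 0.152 to 0.221% in Cx3cr1 HA. By summed share, RNA precipitated from Sall1 homogenate thus held more of the astrocyte and oligodendrocyte lists than of the microglial list. The lists differ in number and level of genes, so these sums do not rank the cell types. No IgG share is given here for the oligodendrocyte list. Values of Sall1 HA below stand for RNA that held markers of astrocytes and oligodendrocytes beside those of microglia. The part of these other cells in each member's value was not tested.

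**Figure D1:**
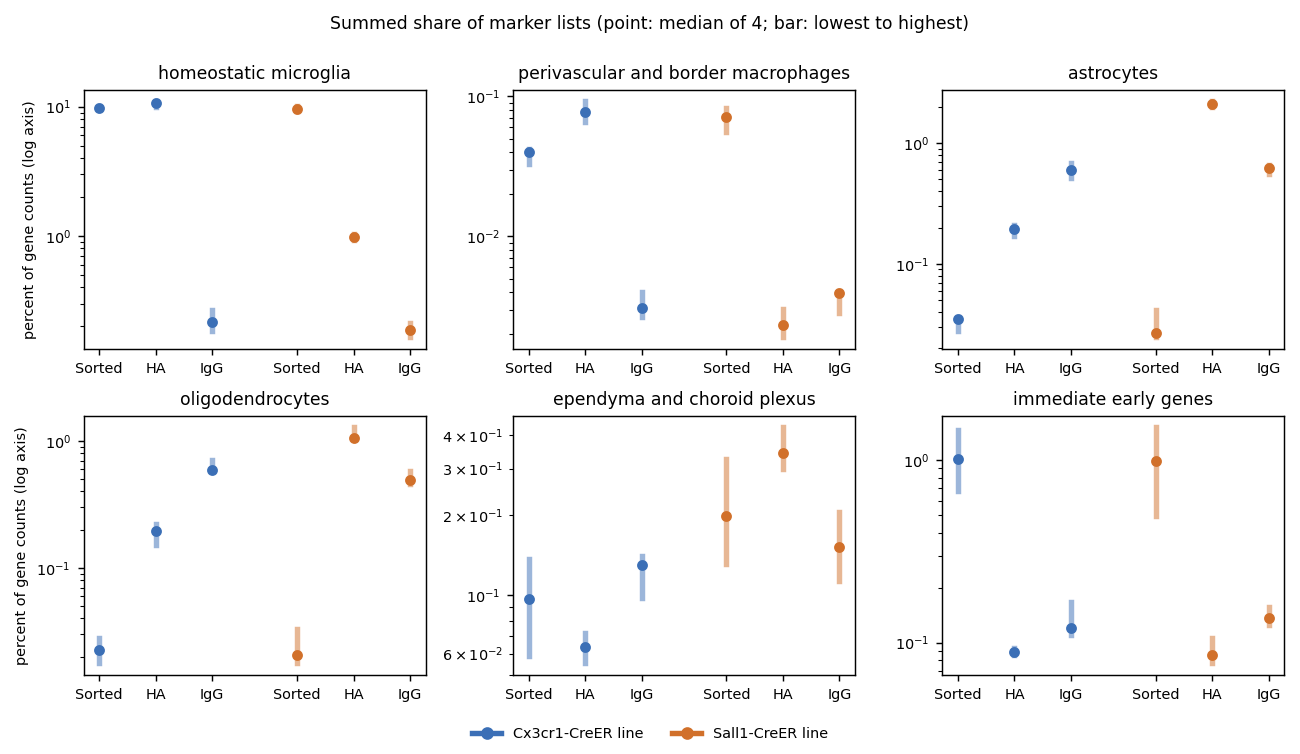
Share of all gene counts (percent, log axis) taken by 6 lists of marker genes in sorted cells (Sort and SortIP of a mouse summed), HA and IgG of both lines; points are medians and bars run from the lowest to the highest of 4 mice. Microglial markers sit near 10% in both sorted groups and in Cx3cr1 HA and near 1% in Sall1 HA, where astrocyte markers sit near 2%.

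RefSeq promoters (GRCm38.p6, 250 bases before to 50 after a start) were found for 8 of the 10 members, 12 promoters in all, and not for Apoc1 and Lpl. They were searched on both strands for 5 short motifs of factors known from microglia and lipid genes. The AP-1 letters TGANTCA occurred in 3 of the 12 (Cst7, Itgax and Gpnmb), against 7.81% of all 32851 promoters of the table. The PU.1 letters GAGGAAGT occurred in 1 of 12 (Spp1), against 3.2% of all. The E-box TCACGTGA bound by lysosomal regulators (0.974% of all), the nuclear receptor core AGGTCA (16.3%) and a direct repeat with 4 bases between, each copy spelled AGGTCA or AGTTCA (0.0274%), occurred in 0 of the 12. LXR also binds repeats with other letters, which were not searched, so these counts say nothing on whether a promoter holds an LXR element. The 4 promoters with a match are printed because they show the letters in their setting, with the match in capitals; a match is a description of the sequence.
Cst7 promoter, chr2:150570165-150570464, plus strand: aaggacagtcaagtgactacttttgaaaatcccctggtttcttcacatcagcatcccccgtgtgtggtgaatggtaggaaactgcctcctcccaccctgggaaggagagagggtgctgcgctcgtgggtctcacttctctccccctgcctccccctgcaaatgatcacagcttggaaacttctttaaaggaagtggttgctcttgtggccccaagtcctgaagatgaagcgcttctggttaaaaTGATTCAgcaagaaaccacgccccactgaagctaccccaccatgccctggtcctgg
Itgax promoter, chr7:128129300-128129599, plus strand: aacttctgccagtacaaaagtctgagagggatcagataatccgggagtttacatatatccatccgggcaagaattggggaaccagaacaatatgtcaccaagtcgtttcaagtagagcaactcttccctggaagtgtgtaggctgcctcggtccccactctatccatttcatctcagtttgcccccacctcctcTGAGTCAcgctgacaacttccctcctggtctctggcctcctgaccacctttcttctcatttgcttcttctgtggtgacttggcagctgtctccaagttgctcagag
Spp1 promoter, chr5:104434861-104435160, plus strand: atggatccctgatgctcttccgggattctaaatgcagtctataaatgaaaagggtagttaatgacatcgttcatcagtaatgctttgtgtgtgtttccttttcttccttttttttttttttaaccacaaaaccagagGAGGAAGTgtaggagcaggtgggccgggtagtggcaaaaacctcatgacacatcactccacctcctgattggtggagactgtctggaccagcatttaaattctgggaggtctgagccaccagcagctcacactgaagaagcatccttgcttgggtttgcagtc
Gpnmb promoter, chr6:49036268-49036567, plus strand: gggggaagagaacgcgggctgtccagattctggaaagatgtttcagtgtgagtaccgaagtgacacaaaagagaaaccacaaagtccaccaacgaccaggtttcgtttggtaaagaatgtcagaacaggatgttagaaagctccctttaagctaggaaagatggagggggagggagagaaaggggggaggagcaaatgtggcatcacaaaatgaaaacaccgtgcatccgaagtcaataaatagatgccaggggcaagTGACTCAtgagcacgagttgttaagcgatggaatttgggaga

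Values below are gene counts scaled to a library total of 1000000 (CPM), given in the order of mice 1, 2, 3 and 4 of the Cx3cr1 line or mice 7, 9, 17 and 21 of the Sall1 line, with means ± SD over n = 4 mice. Differences are log2 fold changes with their SE, and adjusted p values are those of the edgeR quasi-likelihood fit, adjusted by Benjamini-Hochberg over every gene tested; a difference was called at an adjusted p under 0.05. P-values measure the spread between samples of a group, over these 4 mice per line. Unless the mouse is named as a block, comparisons within a line did not use the pairing of samples from the same brain. A gene was tested when enough libraries of either group passed a filter on low counts. A member that passed through 1 group alone could be called only toward that group, so its call adds no support to counts of members. To compare genes with each other, CPM were divided by exon length in kilobases.

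Per kilobase, Apoe was the most abundant member in every group, and Cd9 came second in sorted cells. In sorted cells of the Cx3cr1 line the order was Apoe (1859.7 CPM per kb), Cd9 (639.6), Cst7 (34.7), Abca1 (20.6), Clec7a (19.1), Itgax (8.43), Lpl (7.103), Apoc1 (2.74), Spp1 (1.701) and Gpnmb (0.0568). Abca1 (20.6 ± 3.63) and Clec7a (19.1 ± 7.07) overlapped within their SD there, as did Itgax (8.43 ± 2.003) and Lpl (7.103 ± 1.82). In sorted cells of the Sall1 line Clec7a (34.5 CPM per kb) and Lpl (25.7) stood above Abca1 (21.7) and Apoc1 (19.2), and each of these overlapped its neighbour in the order within their SD. Among all genes with a count, Apoe ranked 25 per kilobase in sorted cells of the Cx3cr1 line and 4 in those of the Sall1 line, in Cx3cr1 HA and in Sall1 HA, while Cd9 ranked 94 and 110 in the sorted cells. Gpnmb had 2 counts over all sorted libraries of the Cx3cr1 line and 5 over those of the Sall1 line.

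**Figure D2:**
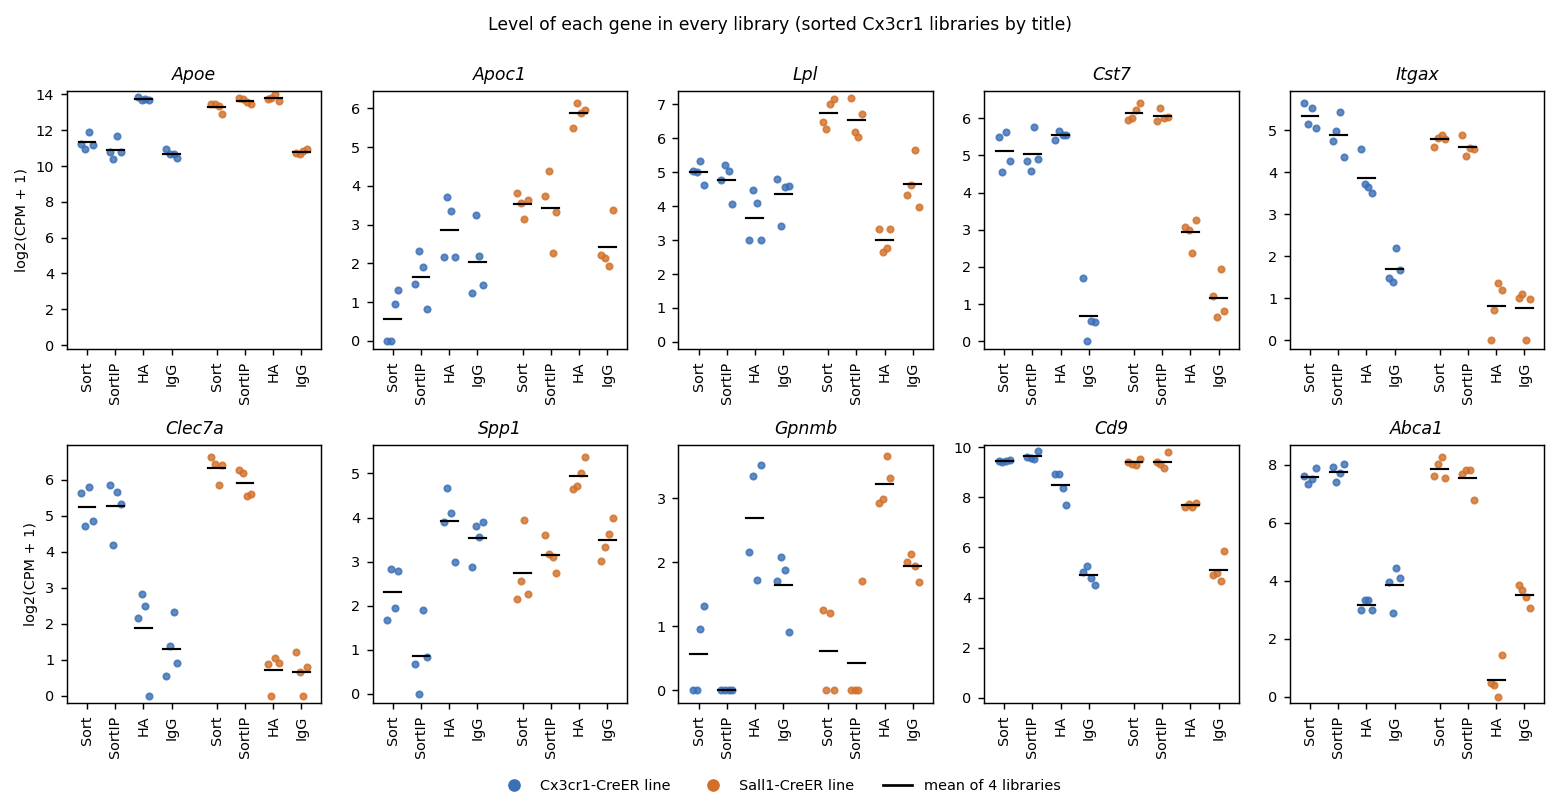
log2(CPM + 1) of the 10 members in all 32 libraries, a panel per gene and a column per group, with sorted Cx3cr1 libraries grouped by title; each point is a library and the black dash the mean of 4. Apoe is high in both HA groups and in the sorted Sall1 groups, and Abca1 is high in the 4 sorted groups alone.

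The comparison of sorted cells between the lines asks whether microglia purified in the same way hold the same levels of these genes. Apoe, Apoc1, Lpl and Cst7 were higher in sorted cells of the Sall1 line, from 1.97-fold (Cst7) to 6.86-fold (Apoc1). Of the 8 members tested, 4 were thus higher and the other 4 were not called, in a comparison that called 2.67% of 9966 genes, 1.62% higher and 1.05% lower. The median log2 fold change over the tested members was 0.91, beside -0.01 over all genes tested. Apoc1 passed the count filter through the Sall1 line alone and could only be called higher, so it adds no support to that count or median.

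Apoe (chromosome 7, 20281593 to 20283747, minus strand, mm9) stood at 1988, 1698, 3534 and 1966 CPM in sorted cells of the Cx3cr1 line. In those of the Sall1 line it stood at 11327, 9088, 12625 and 11843 CPM. Every Sall1 mouse lay above every Cx3cr1 mouse, and mouse 3 was the highest of its line. The means were 2297 ± 835 and 11221 ± 1519 CPM, a log2 fold change of 2.30 ± 0.25 (95% interval 1.71 to 2.89, adjusted p = 0.00356). Without mouse 3 the value was 2.59. In bulk RNA, fewer cells with a high level and less RNA in each cell cannot be told apart.

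Apoc1, which lies 3585 bases from Apoe on the same strand (20274829 to 20278008), was sparse in sorted cells. It had 1.16, 1.73, 2.09 and 1.02 CPM in the Cx3cr1 line, 14 counts in all, and 6.21, 10.5, 12.7 and 12.6 CPM in the Sall1 line, 78 counts in all. The groups did not overlap, and the difference was 2.78 ± 0.38 (95% interval 1.97 to 3.58, adjusted p = 0.000322). Of the neighbouring genes, Tomm40, 2915 bases from Apoe, had 91.5 ± 6.57 CPM in sorted cells of the Cx3cr1 line and 94.9 ± 7.67 in those of the Sall1 line, while Apoc2, whose row shares reads with a read-through transcript and is uncertain, had 12 and 34 counts.

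Lpl (chromosome 8, 71404454 to 71430831, plus strand), the lipase, stood at 28.3, 33.5, 34.5 and 18.4 CPM in the Cx3cr1 line. It stood at 103, 127, 111 and 75.5 CPM in sorted cells of the Sall1 line. All Sall1 mice were above all Cx3cr1 mice, and the difference was 1.88 ± 0.20 (95% interval 1.45 to 2.30, adjusted p = 6.46e-05). Abca1 (chromosome 4, 53043661 to 53172767, minus strand), the transporter that loads APOE with lipid, overlapped between the lines, with 225, 165, 198 and 252 and 277, 156, 201 and 252 CPM. Its difference was 0.08 ± 0.17 (95% interval -0.29 to 0.45, adjusted p = 0.925).

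Among genes of lysosomes and phagocytes, Cst7 (chromosome 2, 150396151 to 150404680, plus strand) stood at 33.7, 22.5, 51.3 and 28.6 CPM in sorted cells of the Cx3cr1 line and at 69.1, 76.5, 59.99 and 66.02 in those of the Sall1 line. The groups did not overlap. Its difference of 0.98 ± 0.20 (adjusted p = 0.0182) was no longer called without mouse 1 (0.0574), mouse 4 (0.0553) or mouse 7 (0.0643), or from SortIP by description alone (0.0746). Spp1 had too few counts for the test, 22 in the Cx3cr1 line and 48 in the Sall1 line. Its values of 1.16, 3.46, 2.79 and 2.56 CPM and 11.7, 4.58, 6.57 and 5.502 CPM did not overlap.

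The surface molecules showed no called difference in the summed counts. Clec7a (chromosome 6, 129411609 to 129422797, minus strand) stood at 54.3, 21.9, 51.6 and 35.3 CPM and 52.05, 69.2, 89.99 and 83.3 CPM, groups that overlapped, with a difference of 0.85 ± 0.27 (95% interval 0.25 to 1.44, adjusted p = 0.165). DESeq2 gave it an adjusted p of 0.0319, and titled Sort libraries alone a difference of 0.94 (adjusted p = 0.00683). Itgax (chromosome 7, 135273082 to 135294171) had 34.1, 32.9, 43.6 and 24.04 CPM in the Cx3cr1 line and 26.4, 25.2, 25.5 and 25.9 in the Sall1 line, where the 4 mice lay close together, and a difference of -0.39 ± 0.18 (95% interval -0.77 to -0.00, adjusted p = 0.378). From titled Sort libraries alone Itgax was lower in the Sall1 line (-0.74, adjusted p = 0.0143). Sort by description alone, and SortIP alone by title or by description, called neither Clec7a nor Itgax. Titled Sort alone called far more genes of all kinds than the summed counts did, as given at the end, so its calls are not particular to these members. Cd9 (chromosome 6, 125410284 to 125444773) was at 753, 709.9, 719 and 842 CPM and 607, 798, 673 and 641 CPM, which overlapped, with a difference of -0.13 ± 0.11 (95% interval -0.36 to 0.09). The interval of Cd9 and that of Abca1 both lie within a log2 difference of 0.5 either way.

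**Figure D3:**
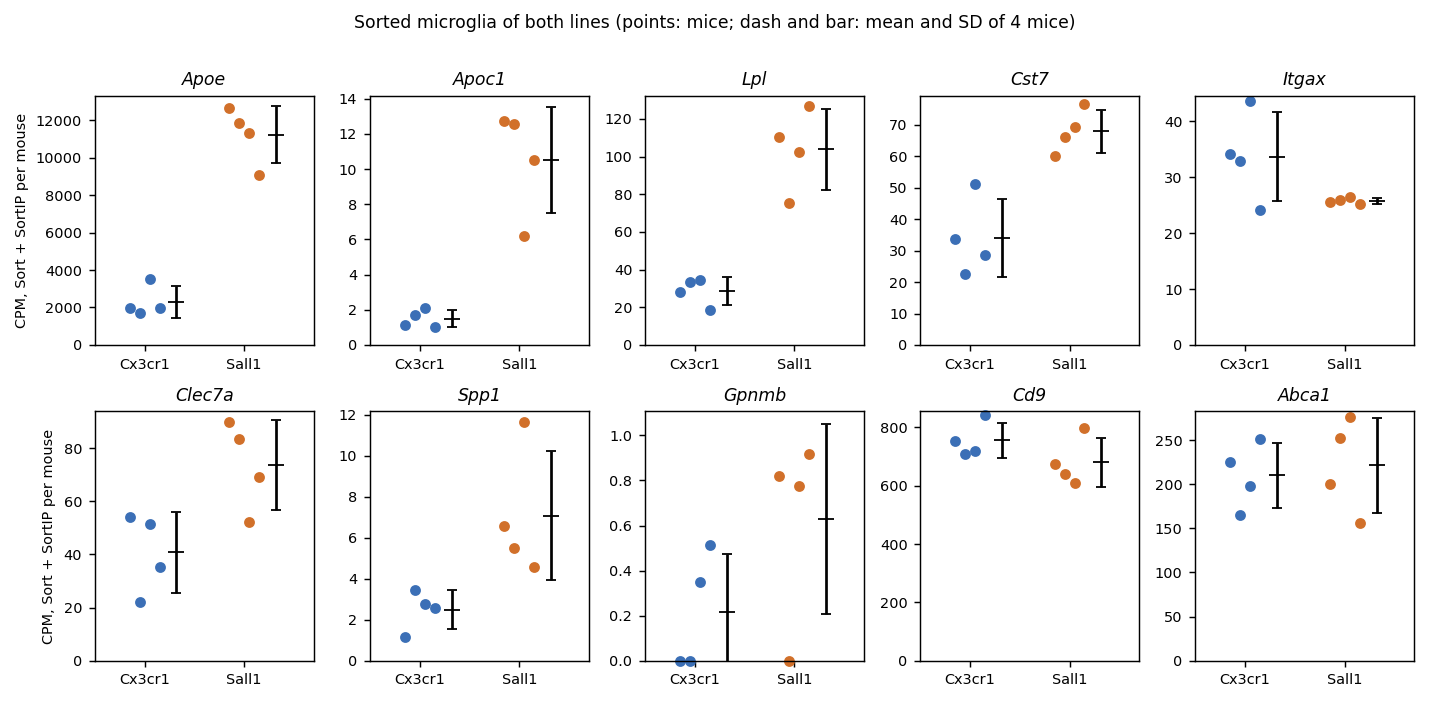
CPM of each member in sorted cells (Sort and SortIP of a mouse summed), a panel per gene with its own axis from 0; points are mice, dashes means and bars the SD over 4 mice, cut at 0. Apoe, Apoc1, Lpl, Cst7 and Spp1 show no overlap between the lines, while Cd9, Abca1, Itgax, Clec7a and Gpnmb overlap. The share of all genes without overlap was not computed, so this is a description of the points. Spp1 had too few counts for the test.

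Markers of perivascular and border macrophages, cells that also make APOE, moved with this comparison. The list of 11 genes summed to 0.0330 to 0.0423% of counts in sorted cells of the Cx3cr1 line and to 0.0558 to 0.0823% in those of the Sall1 line, with 0 of its 11 genes at 0 in either. All 5 members of that list that could be tested were higher in the Sall1 line, beside 1.62% of all genes tested. Among them was the mannose receptor gene Mrc1 (2.99 ± 0.33, adjusted p = 0.00127). Ependymal and choroid plexus markers summed to 0.0589 to 0.136% and 0.131 to 0.326%, ranges that overlap at their ends. Monocyte markers summed to 0.00457 to 0.00962% and 0.00605 to 0.00904%, ranges that overlap, with the monocyte gene Ly6c2 at 0 in the Cx3cr1 line. Astrocyte markers overlapped too, at 0.0279 to 0.0365% and 0.0247 to 0.0415%. The part of macrophage or ependymal RNA in the member differences was not tested.

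Immediate early genes such as Fos, which respond quickly to stimuli and to tissue dissociation, overlapped between the lines. They summed to 0.681 to 1.46% of counts in sorted cells of the Cx3cr1 line and 0.493 to 1.51% in those of the Sall1 line. The same list took 0.0855 to 0.0931% in Cx3cr1 HA and 0.0772 to 0.107% in Sall1 HA, so it was higher in sorted cells than in RNA from homogenate. Its part in the differences between HA and sorted cells given below was not tested.

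Other genes of the same pathways, from 2 lists that leave the 10 members out, moved in part with them. Of 35 other disease-associated microglia genes tested in sorted cells, 5 were higher and 1 lower in the Sall1 line (median 0.09). The higher ones included Cybb, the catalytic subunit of the phagocyte NADPH oxidase (2.25 ± 0.18, adjusted p = 3.07e-06), and Axl, a receptor kinase for dying cells (1.65 ± 0.18, adjusted p = 9.25e-05), and the lower one was the cathepsin gene Ctsl (-0.58 ± 0.11, adjusted p = 0.00737). The TREM2 pathway genes Trem2 (0.09 ± 0.10) and Tyrobp (0.19 ± 0.10) were not called. Of 28 genes of lipoprotein and cholesterol handling tested, 4 were higher and 24 not called (median -0.03), among them Pltp, the phospholipid transfer protein (1.5 ± 0.22, adjusted p = 0.000766), and the apolipoprotein gene Clu (0.97 ± 0.22, adjusted p = 0.0242). Among 22 homeostatic microglia genes, 1 was higher and 2 were lower, with P2ry12 at -0.48 ± 0.08 (adjusted p = 0.00413).

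Precipitation of homogenate asks which of these transcripts the tagged ribosomes carried above the level that an isotype antibody recovers. Apoe, Cst7 and Cd9 were recovered above IgG in both lines. Itgax was higher in the Cx3cr1 line and too sparse for the test in the Sall1 line. Apoc1, Spp1 and Gpnmb were higher in the Sall1 line. Lpl and Abca1 were not above IgG in either line. Of 7 members tested in the Cx3cr1 line, 4 were higher and 3 not called, in a comparison that called 64.5% of 10021 genes, 28.6% higher and 36% lower. Of 8 tested in the Sall1 line, 6 were higher and 2 lower, where 71.3% of 11545 genes were called, 35.2% higher and 36.1% lower. Cst7 and Itgax in the Cx3cr1 line passed the count filter through HA alone. So did Apoc1, Cst7 and Gpnmb in the Sall1 line, where Abca1 passed through IgG alone.

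Apoe reached 14902, 13279, 13492 and 13215 CPM in Cx3cr1 HA, against 2006, 1623, 1657 and 1423 CPM in IgG. In the Sall1 line it reached 16762, 12895, 13797 and 14093 CPM in HA, against 1835, 1971, 1695 and 1626 CPM in IgG. All HA libraries of both lines were above all IgG libraries, and the 2 HA groups overlapped. The enrichment was 3.44 ± 0.17 in the Cx3cr1 line (adjusted p = 1.13e-10) and 3.42 ± 0.15 in the Sall1 line (adjusted p = 1.63e-11), and the interaction term of the difference was -0.06 ± 0.21 (95% interval -0.49 to 0.37, adjusted p = 0.873). With an offset for transcript length and the mouse as a block, that difference was -0.51 (adjusted p = 0.0451).

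The levels in HA were alike in size although the marker content of the precipitates was not. Microglial markers took a lower share of Sall1 HA than of Cx3cr1 HA and astrocyte markers a higher one, as given above. How much of the Apoe in either precipitate came from astrocytes was not tested.

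For Apoc1, HA of the Sall1 line had 57.5, 60.8, 44.4 and 70.03 CPM and IgG 2.84, 9.39, 3.68 and 3.398 CPM, without overlap. Its enrichment there was 3.80 ± 0.30 (adjusted p = 5.15e-09). In Cx3cr1 HA it had 11 counts in all, 3.48, 12.2, 9.18 and 3.49 CPM, which overlapped its IgG (1.36, 8.501, 3.59 and 1.74 CPM) and was not tested alone. The enrichment differed between lines by 2.58 ± 0.72 (adjusted p = 0.00804) in an interaction that called 32.2% of 12308 genes, 18.5% higher and 13.7% lower. There, 1 of 9 tested members was higher in the Sall1 line and 4 were lower.

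Lpl was low in both precipitates. It had 6.96, 21.4, 16.1 and 6.98 CPM in Cx3cr1 HA against 26.8, 9.71, 22.9 and 23.01 CPM in IgG, which overlapped (-0.31 ± 0.46, adjusted p = 0.566). Values in the Sall1 line were 5.805, 8.996, 9.05 and 5.29 CPM in HA and 49.7, 14.8, 19.1 and 23.8 CPM in IgG. Each Sall1 HA library was below each IgG library, a difference of -1.34 ± 0.36 (adjusted p = 0.00314). Abca1 had 6 counts over the 4 Sall1 HA libraries (0, 1.71, 0.411 and 0.3303 CPM) and 9.94, 7.41, 13.4 and 11.9 CPM in IgG, a difference of -3.61 ± 0.54 (adjusted p = 1.21e-05). Cx3cr1 mice had 6.96, 9.18, 9.18 and 6.98 CPM of Abca1 in HA and 14.5, 6.48, 20.6 and 16.1 in IgG, which overlapped (-0.44 ± 0.48, adjusted p = 0.434), and the enrichment differed between lines by -3.20 ± 0.80 (adjusted p = 0.00296).

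Abca1 has the longest exons of the set at 10208 bases and Apoc1 the shortest at 549. Across all genes tested, enrichment in HA over IgG fell with exon length, with a Spearman rho of -0.368 in the Cx3cr1 line and -0.527 in the Sall1 line. These are correlations across genes, which share libraries and are not independent. With an offset for length, the Sall1 values became -1.88 for Abca1, -0.89 for Lpl, 2.22 for Apoc1, 1.92 for Cst7 and 1.24 for Spp1, all still called.

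Cst7 was the member with the largest enrichment in the Cx3cr1 line, at 41.8, 48.9, 45.9 and 45.4 CPM in HA against 2.27, 0, 0.449 and 0.434 CPM in IgG (6.13 ± 0.50, adjusted p = 3.19e-08). In Sall1 HA it stood at 4.22, 8.57, 7.403 and 6.94 CPM, above IgG at 2.84, 0.741, 1.34 and 0.566 CPM in all pairs of libraries (3.02 ± 0.46, adjusted p = 1.38e-05). The 2 HA groups did not overlap, and the enrichment differed between lines by -3.22 ± 0.84 (adjusted p = 0.00427). Cst7 thus had an opposite order between lines in sorted cells, where the Sall1 line was higher, and in HA, where the Cx3cr1 line was higher. The call in sorted cells was lost when some single mice were left out, as given above. Homeostatic microglia markers also took a lower share of Sall1 HA than of Cx3cr1 HA. Their part in this order was not tested.

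Itgax had 22.6, 12.2, 11.5 and 10.5 CPM in Cx3cr1 HA, with mouse 1 above the other 3, against 1.82, 1.62, 3.59 and 2.17 CPM in IgG. In the Sall1 line it had 8 counts in HA and 9 in IgG, a ratio of 0.872 with a 95% counting interval of 0.293 to 2.55. The Cx3cr1 enrichment was 3.07 ± 0.44 (adjusted p = 2.02e-05), and the difference between lines of -2.86 ± 0.93 (adjusted p = 0.0195) was not called without mouse 1 (0.0944), 17 (0.0774) or 21 (0.0678). Clec7a had 6 counts in each HA group and 16 and 8 in IgG of the Cx3cr1 and Sall1 lines, with a HA to IgG ratio of 2.13 (0.681 to 5.72) and 0.736 (0.21 to 2.42), so a recovery above IgG was not detectable at this depth.

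Cd9 reached 484, 483, 333 and 206 CPM in Cx3cr1 HA and 197, 219, 192 and 212 CPM in Sall1 HA, where mouse 4 of the Cx3cr1 line fell among the Sall1 values. IgG held 31.8, 36.8, 26.5 and 21.7 CPM in the Cx3cr1 line and 24.1, 57.1, 28.4 and 30.6 CPM in the Sall1 line, below every HA library of the line. The enrichment was 4.10 ± 0.28 (adjusted p = 5.85e-09) and 2.90 ± 0.21 (adjusted p = 2.03e-09). It differed between lines by -1.23 ± 0.35 (adjusted p = 0.00934), a call lost without mouse 9 (0.0561).

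Spp1 and Gpnmb were recovered in Sall1 HA. Spp1 (chromosome 5, 104864130 to 104870072, plus strand) had 31.1, 40.7, 24.3 and 25.1 CPM in HA and 11.4, 14.8, 7.03 and 9.06 CPM in IgG, without overlap (1.92 ± 0.27, adjusted p = 5.23e-06). In the Cx3cr1 line its 13.9, 24.5, 16.1 and 6.98 CPM in HA overlapped the 6.36, 12.95, 10.8 and 13.9 CPM of IgG (0.88 ± 0.41, adjusted p = 0.0716; with the mouse as a block 0.96, adjusted p = 0.0429, and without the HA library of mouse 4 1.07, adjusted p = 0.0494). Gpnmb (chromosome 6, 48986517 to 49008181, plus strand) had 11.6, 8.996, 6.58 and 6.94 CPM in HA of the Sall1 line, 80 counts in all, and 2.84, 2.22, 3.01 and 3.398 CPM in IgG (1.99 ± 0.36, adjusted p = 9.52e-05). Its 9 counts in Cx3cr1 HA stood at a ratio to IgG of 2.43 (95% counting interval 0.98 to 5.53). The differences between lines of Spp1 (1.00 ± 0.48, adjusted p = 0.119) and Gpnmb (0.24 ± 0.74, adjusted p = 0.845) were not called.

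**Figure D4:**
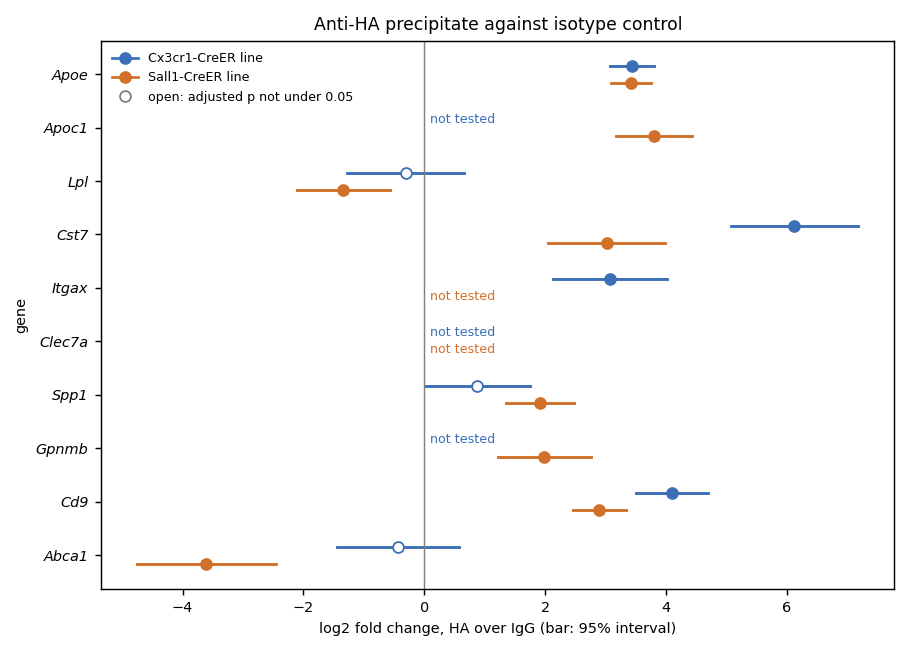
log2 fold change of HA over IgG for each member and line with its 95% interval; open points have an adjusted p of at least 0.05, and members with too few counts are marked as not tested. Apoe sits near 3.4 in both lines, Cst7 at 6.13 in the Cx3cr1 line and 3.02 in the Sall1 line, and Lpl and Abca1 at or below 0. Intervals of members with few counts can be too narrow.

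The IgG background was also compared between the lines. Of 5 members tested, edgeR and DESeq2 called 0, and 0 had an unadjusted p under 0.05 in edgeR, in a comparison that called 0.00863% of 11593 genes (1 gene, and 2 by DESeq2). Compared directly, Sall1 HA against Cx3cr1 HA called 52.9% of 9092 genes, 27.2% higher and 25.7% lower. Of 8 members tested, Apoc1 was higher in the Sall1 line (2.89 ± 0.37, adjusted p = 2.89e-07). Cst7 (-2.89 ± 0.28), Itgax (-4.24 ± 0.55) and Cd9 (-1.08 ± 0.20) were lower, the last with groups that overlapped, and Apoe was at -0.12 ± 0.15 (adjusted p = 0.501; with a length offset -0.40, adjusted p = 0.0242). Spp1 was not called at 0.77 ± 0.34 (adjusted p = 0.0557), but was called higher in Sall1 HA without scaling for composition (0.97, adjusted p = 0.0169), without a filter on low counts (0.93, adjusted p = 0.0190) and without mouse 2 (0.0259), 17 (0.0349) or 21 (0.0325). Lpl was at -0.96 ± 0.43 (adjusted p = 0.0607), and without mouse 1 at -1.24 (adjusted p = 0.0353).

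Of the other disease-associated microglia genes, 25 of 35 tested were higher in HA than IgG and 3 lower in the Cx3cr1 line (median 3.30). They included the TREM2 signalling genes Trem2 (6.88) and Tyrobp (6.76). In the Sall1 line 25 of 34 were higher and 3 lower (median 1.69), with Cd52 at 4.40 and Tyrobp at 4.12. The genes of lipoprotein and cholesterol handling split, with 15 higher and 12 lower of 34 in the Cx3cr1 line and 22 higher and 9 lower of 39 in the Sall1 line. Npc2, a lysosomal cholesterol carrier, was higher in both (4.99 and 3.91), and Vldlr, an APOE receptor, was lower in both (-3.16 and -3.43).

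HA from homogenate was then set against sorted cells of the same mice, which asks how the members differ between RNA on tagged ribosomes in intact tissue and RNA of purified cells. These comparisons share the HA libraries with those above and the sorted libraries with the comparison of lines. Abca1, Clec7a, Lpl, Itgax and Cd9 were lower in HA than in sorted cells in both lines, and Apoe was higher in both. Of 7 members tested in the Cx3cr1 line, 1 was higher and 5 were lower, where 69.6% of 9478 genes were called, 30.7% higher and 39% lower. All 10 could be tested in the Sall1 line, where 4 were higher and 6 lower, beside 85.1% of 11675 genes called, 43.6% higher and 41.5% lower. There, Abca1, Clec7a, Itgax and Cst7 passed the count filter through sorted cells alone and Gpnmb through HA alone. In the Cx3cr1 line Abca1 and Clec7a passed through sorted cells alone.

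Abca1 showed the largest gap. It fell from 225, 165, 198 and 252 CPM in sorted cells of the Cx3cr1 line to 6.96, 9.18, 9.18 and 6.98 in HA, and from 277, 156, 201 and 252 CPM in those of the Sall1 line to 0, 1.71, 0.411 and 0.3303 in HA. The sorted cells were above every HA library, by a log2 fold change of HA over sorted cells of -4.55 ± 0.29 (adjusted p = 4.07e-12) and -8.09 ± 0.35 (adjusted p = 2.46e-14). The second rests on 6 counts in HA against 1506, a ratio of sorted cells over HA of 339 with a 95% counting interval of 155 to 925. In both lines Abca1 was above IgG in sorted cells (3.79 and 4.44).

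Clec7a followed the same order. Its 6 counts in either HA group compare with 395 counts in sorted cells of the Cx3cr1 line and 543 in those of the Sall1 line. HA over sorted cells was -3.32 ± 0.53 (adjusted p = 1.18e-05) in the Cx3cr1 line and -6.51 ± 0.36 (adjusted p = 2.01e-13) in the Sall1 line. Itgax was lower in HA, at -1.01 ± 0.33 and -4.60 ± 0.38, as were Lpl at -1.06 ± 0.37 and -3.58 ± 0.22 and Cd9 at -0.84 ± 0.20 and -1.47 ± 0.13, all on the log2 scale and all called. For the Cx3cr1 line the calls of Lpl and Itgax were lost with a length offset (adjusted p = 0.195 and 0.172), and that of Lpl also without the HA library of mouse 1 (0.104) or 4 (0.0510) or the sorted cells of mouse 3 (0.0547). Against titled SortIP alone, neither Lpl (-0.87, adjusted p = 0.0568) nor Itgax (-0.74, adjusted p = 0.0779) was called in that line. Against SortIP by description alone, both stayed called.

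Cst7 separated the lines in this comparison. HA and sorted cells of the Cx3cr1 line overlapped (0.53 ± 0.27, adjusted p = 0.0863; with the mouse as a block 0.0463, against titled SortIP alone 0.0478, and without the sorted cells of mouse 3 0.89, adjusted p = 0.00381). Against SortIP by description alone, Cst7 was not called in the Cx3cr1 line. In the Sall1 line HA lay below every sorted value, at -3.03 ± 0.21 (adjusted p = 1.08e-11).

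Apoe in Cx3cr1 HA was above sorted cells in every pair of samples (2.73 ± 0.21, adjusted p = 1.57e-10). In the Sall1 line HA and sorted cells lay close, with 12895 CPM as the lowest HA value and 12625 as the highest sorted value. That difference of 0.62 ± 0.14 (adjusted p = 0.000258) turned to -0.11 with a length offset (adjusted p = 0.473) and was not called against SortIP alone (0.31, adjusted p = 0.0634). Apoc1 was higher in Sall1 HA than in sorted cells (2.70 ± 0.22, adjusted p = 2.02e-10), as were Spp1 (2.40 ± 0.27, adjusted p = 4.45e-08) and Gpnmb (3.73 ± 0.48, adjusted p = 2.41e-07). With a length offset Apoc1 was at 1.45 and Cd9 at -2.23 in this comparison, both still called.

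Spp1 and Gpnmb had their lowest means in sorted cells in both lines. Spp1 was below IgG there in the Cx3cr1 line (-2.24 ± 0.38, adjusted p = 0.000165), where 5 of 8 tested members were higher than IgG and 1 lower (77.4% of 11934 genes called, 35.5% higher and 41.8% lower). Gpnmb stood at a ratio of Cx3cr1 HA over sorted cells of 25.3 (95% counting interval 5.24 to 241) and of Sall1 HA over sorted cells of 11.9 (4.87 to 37.5). Against IgG, Cst7, Itgax and Clec7a in both lines and Apoc1 in the Sall1 line passed the count filter through sorted cells alone. Spp1 in the Cx3cr1 line passed through IgG alone. In sorted cells of the Sall1 line 8 of 9 tested members were above IgG and Spp1 was not called (-0.55 ± 0.36, adjusted p = 0.161), where 78.8% of 11889 genes were called, 37.9% higher and 40.9% lower. Among the 8, Apoc1 overlapped its IgG, and its call (1.02 ± 0.38, adjusted p = 0.0185) was lost with a length offset (0.0701), without the IgG library of mouse 17 (0.0716) or 21 (0.0654) and without the sorted cells of mouse 21 (0.0509). Lpl in sorted cells of the Cx3cr1 line was not called over IgG (0.42 ± 0.30, adjusted p = 0.225), but was with a length offset (0.89, adjusted p = 0.0102). Apoe in sorted cells exceeded IgG in the Sall1 line (2.74 ± 0.15, adjusted p = 1.32e-12), whereas in the Cx3cr1 line it was not called (0.39 ± 0.24, adjusted p = 0.149); the difference between these was not tested.

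**Figure D5:**
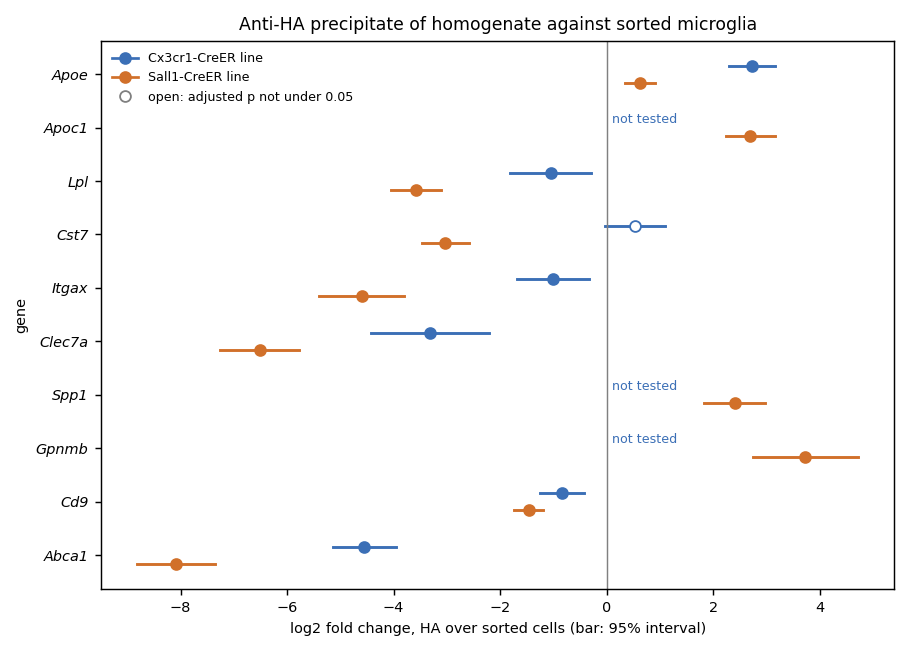
log2 fold change of HA over sorted cells (Sort and SortIP summed per mouse) for each member and line with its 95% interval; open points have an adjusted p of at least 0.05. Abca1 (-4.55 and -8.09) and Clec7a (-3.32 and -6.51) lie lowest, Gpnmb in the Sall1 line highest at 3.73, and Apoe above 0 in both lines. Intervals of members with few counts can be too narrow.

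An interaction term, added after the data had been seen, compared the difference of HA over sorted cells between lines. It called 32.4% of 11950 genes, 14.5% higher and 17.9% lower, and 7 of the 10 members were lower in the Sall1 line while 3 were not called. The values were -2.28 ± 0.25 for Apoe (adjusted p = 1.18e-08), -2.70 ± 0.52 for Lpl (adjusted p = 7.88e-05) and -3.70 ± 0.68 for Abca1 (adjusted p = 5.25e-05). For the phagocyte genes they were -3.74 ± 0.36 for Cst7, -3.76 ± 0.58 for Itgax, -3.35 ± 1.09 for Clec7a and -0.81 ± 0.24 for Cd9. Homeostatic microglia markers made up a lower share of Sall1 HA than of Cx3cr1 HA, as given above, and the part of that share in these values was not tested.

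Precipitation after sorting was compared with sorting alone within each line. In the Sall1 line 1 of 8 tested members, Apoe, was higher in SortIP than in Sort, where 10.5% of 8603 genes were called, 5.45% higher and 5.08% lower. Its values were 10632, 7554, 11446 and 11346 CPM in Sort and 12332, 11349, 14373 and 13875 CPM in SortIP. SortIP was higher than Sort in each of the 4 mice although the groups overlapped, with a difference of 0.49 ± 0.13 (adjusted p = 0.0177). The call was kept with the mouse as a block, and lost without scaling for composition (0.0821), with a length offset (0.0504) and without the Sort library of mouse 9 (0.0632) or the SortIP library of mouse 17 (0.0577) or 21 (0.0532).

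Grouped by title, 0 of 7 tested members of the Cx3cr1 line were called by edgeR and 0 by DESeq2, and 1 of them, Itgax, had an unadjusted p under 0.05 and was called lower in titled SortIP without the titled SortIP library of mouse 3 (-0.84, adjusted p = 0.0262). In this comparison 12.8% of 8704 genes were called, 6.36% higher and 6.45% lower. Apoe stood at 2448, 1951, 3903 and 2288 CPM in titled Sort and 1740.0, 1363, 3318 and 1796 CPM in titled SortIP, with titled SortIP lower in each of the 4 mice. The difference was -0.49 ± 0.34 (adjusted p = 0.386), and with the mouse as a block -0.52 (adjusted p = 0.00445). Grouping by description turns its sign. Homeostatic microglia markers took 10.8 to 12.1% of titled Cx3cr1 Sort and 8.38 to 9.38% of titled SortIP, against 8.2 to 9.28% of Sall1 Sort and 10.9 to 11.5% of Sall1 SortIP.

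Over the 32 libraries, the genes whose log2(CPM + 1) was most like that of each member fell into several kinds; these correlations are descriptions over 32 libraries that share depth and kind of preparation. Itgax was closest to the macrophage gene Adgre1 (r = 0.980), Cst7 to H2-DMa (0.975) and Aif1 (0.970), and Cd9 to Tmem63a (0.977) and Rnaset2b (0.975). Clec7a was closest to Elf1 (0.978) and Abca1 to Maml2 and Adam10 (both 0.986). Lpl was closest to Cp (0.902), St8sia4 (0.895) and Ccr1 (0.884), and both Cp (4.67, adjusted p = 2.89e-08) and Ccr1 (4.84, adjusted p = 1.08e-10) were higher in sorted cells of the Sall1 line. Apoe was closest to Ssr2 (0.883), Sil1 (0.845) and Axl (0.843), and Apoc1 to Ramp1 (0.819), Gadd45g (0.818) and H2afj (0.805). Spp1 was closest to Ptov1 (0.843) and to C1qtnf5 and Mfrp (each 0.840), whose values are alike and may rest on shared reads, and Gpnmb to Lamtor2 (0.907), Pfdn6 (0.904) and Cox14 (0.893). Among members, Apoe and Apoc1 had r = 0.681, and Apoe and Abca1 r = -0.177.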

How the data were processed

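Polyadenylated RNA of 32 mouse libraries was measured in 8 groups of 4. The authors deposited raw counts per gene over exons, without normalization; bcl2fastq, HISAT 0.1.5, HOMER and build mm9 were used, per the submitters' processing notes. How multiply mapped reads and strand were treated was not given in the sources used here, so genes with near-identical copies or overlapping genes are uncertain. No member overlaps another gene of the table. All 32 count columns were matched to samples by description, and groups follow the titles.

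Counts were tested with edgeR 4.0.16 in R 4.3.3 (TMM, filterByExpr with a minimum count of 10, robust quasi-likelihood fit on the compared groups). The Benjamini-Hochberg adjustment ran over all genes tested, and an adjusted p under 0.05 was called. The script was tested on simulated data. The difference in HA enrichment was an interaction over the 16 homogenate libraries. DESeq2 1.42.0, other scalings, no filter, a length offset (lowess span 0.3), the replicate block, leaving out each replicate and other groupings of sorted libraries were alternatives. Counting intervals are exact at 95% and, with no molecular identifiers, cover counting error only. Promoters came from RefSeq (GRCm38.p6); tables were read with pandas 2.3.3 and scipy 1.17.1.

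Libraries of a group were compared first: over 48 pairs, chi-square per degree of freedom ran from 1.58 to 22.5, above sampling noise. Each brain was divided in 4, per the series' design, so equal numbers within a line are 1 mouse and pair the samples. Deviations from group means had a median correlation of 0.0432 over the 48 pairs of libraries of a mouse (from -0.113 to 0.250).

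The members and the gene lists were chosen with earlier results of these data known. Genes named beside the members follow a written rule: the genes of both Cre drivers, the first genes of each list, per pathway list and comparison the called genes of largest fold change with a mean of at least 10 CPM and those of highest level, and genes among the 3 most like each member, of which some are not reported here. Tomm40 and Apoc2 were looked at for their position or role after values were seen.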

Additional observations from a re-analysis of the deposited data

Results flagged for a closer look

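In 80 groups of 4 libraries (10 members in 8 groups), a single library lay far from the other 3 by Dixon's 95% criterion in 6. Chance alone gives about 1 in 20 such groups. The 6 were Apoe in Cx3cr1 HA of mouse 1 (14902 CPM, highest), Apoc1 in Sall1 IgG of mouse 9 (9.39 CPM, highest), Itgax in Cx3cr1 HA of mouse 1 (22.6 CPM, highest) and in Sall1 IgG of mouse 7 (0 CPM, lowest). The others were Spp1 in Sall1 Sort of mouse 7 (14.5 CPM, highest) and Gpnmb in Sall1 SortIP of mouse 9 (2.27 CPM, highest).

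Enrichment of HA over IgG differed between the lines by an interaction test for 5 of 9 members tested, beside 32.2% of 12308 genes called. The Sall1 minus Cx3cr1 log2 values were 2.58 for Apoc1, -3.22 for Cst7, -2.86 for Itgax, -1.23 for Cd9 and -3.20 for Abca1. The call of Itgax was lost without mouse 1 (0.0944), 17 (0.0774) or 21 (0.0678) and that of Cd9 without mouse 9 (0.0561). The difference of HA over sorted cells, tested by the interaction added after the data had been seen, differed between lines for 7 of 10 members. That test called 32.4% of 11950 genes. The Sall1 minus Cx3cr1 log2 values of this second interaction were -2.28 for Apoe, -2.70 for Lpl, -3.74 for Cst7, -3.76 for Itgax, -3.35 for Clec7a, -0.81 for Cd9 and -3.70 for Abca1. In the second interaction the call of Clec7a was lost without mouse 3 of the Cx3cr1 line (0.0562) and that of Cd9 without mouse 1 (0.0524) or 2 (0.0604) of that line.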

How the results depend on the processing

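A change of direction was counted only where the main or the recomputed value was called. Turned signs of uncalled values are thus left out, such as Abca1 in sorted cells between lines (-0.05 to 0.22 with a mouse left out). Signs turned by grouping Cx3cr1 SortIP and Sort by description are left out too. Of 806 values recomputed with a replicate left out, 0 changed direction in this sense, 19 lost their call and 8 gained 1. Of 744 under other settings, 2 changed direction in this sense, 11 lost their call and 14 gained 1. The 2 that turned were Apoe in Sall1 HA against sorted cells, at -0.11 with a length offset and -0.11 with a length offset and the replicate block. In sorted cells between lines, 2078 genes were called from Sort by title, 138 from Sort by description, 919 from SortIP by title and 94 from SortIP by description (2 members), beside 266 from the sums and 150 to 248 with a mouse left out (fewest without mouse 1, 17 or 7); the cause was not tested. Without a filter, 7 members were called between the HA groups. Between IgG groups DESeq2 called 2 genes, and leaving out a replicate gave 0 to 1. In Sall1 SortIP against Sort, 0 members were called without scaling or with a length offset, and 0 to 1 (393 to 785 genes, of 906) with a replicate left out. In Cx3cr1 SortIP against Sort, 1 member was called with the replicate block and 1 with block and length offset; with a replicate left out 0 to 2 (456 to 1387 genes, of 1115). The block alone changed no other member's call than those of Apoe, Spp1 and Cst7 given in the report. Gene counts fell by more than 1.5 times without the Sall1 Sort library of mouse 17 (393), and in the Cx3cr1 line without the titled Sort library of mouse 1 or 3 or the titled SortIP library of mouse 1 or 4 (456 to 645). Without scaling, the median of all genes shifted from -0.28 to -0.70 in Cx3cr1 HA against IgG, and calls split into 2102 higher and 4749 lower (2862 and 3603 with scaling); in the Sall1 line 2869 and 5427 (4064 and 4166). Sall1 HA against Cx3cr1 HA split into 3051 and 1932 (2471 and 2337), Sall1 SortIP against Sort into 219 and 800 (469 and 437) and Cx3cr1 SortIP against Sort into 999 and 295 (554 and 561). With a length offset the HA enrichment difference split into 1662 and 2084 (2277 and 1688). Depth limits Apoc1, Clec7a, Gpnmb and Abca1 in HA, where totals of 6 to 13 counts set the precision in Cx3cr1 HA.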
